A study of Rattus norvegicus with 16 samples.

Results

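Synaptotagmins are membrane proteins of vesicles and of the plasma membrane, and 10 genes of the family are described here across 4 groups of hippocampal neuron cultures. The genes are Syt1, Syt2, Syt3, Syt4, Syt5, Syt7, Syt9, Syt11, Syt12 and Syt13, found through the gene name that the array gives to each probe. They are 10 of 22925 genes tested, and 14 probes of the array carry their names. They were chosen by gene family and with the knockdown and nontargeting intensities known, where Syt12 had the 4th largest rise of all 22925 genes, so that comparison is given below as a description with no p-value.

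The cultures were primary hippocampal neurons taken at embryonic day 18 to 19 from Sprague-Dawley rats. In the knockdown group, lentivirus made from a pTRIP vector delivered a short hairpin RNA (shRNA) directed at the coding region of PRR7, an adaptor protein of synapses. In the overexpression group, lentivirus made from the FUGW vector carried full-length PRR7. The nontargeting group received lentivirus with a control shRNA that has no target, and the not transduced group received no virus. No group carried an overexpression virus without PRR7. Each group held 4 samples, which the study's design calls biological replicates, and no source used here says which animals or culture preparations lay behind them, so the p-values measure the spread between these samples. Each of the 8 two-colour Agilent arrays carried 2 samples of the same group, replicates 1 and 2 or replicates 3 and 4. Knockdown and nontargeting arrays shared a slide, and overexpression and not transduced arrays shared the other. Each of these pairs is thus compared within a slide, whereas knockdown or nontargeting against not transduced spans the slides, so that slide and group cannot be told apart there. Between 49.2% and 69.6% of the 41012 probes were well above background per sample, and the median net signal per sample ran from 73.2 to 150 intensity units. No probe is named Prr7, so the knockdown and the overexpression were not checked on their target. Neuronal markers were present, with 10 of 11 measured and each of these well above background in all 16 samples. Astrocyte markers were present too, 8 of 9 well above background in all 16 samples. Of 8 microglial markers, C1qb, Csf1r and Cd68 were well above background in all 16 samples, C1qa in 9 and Ptprc in 4. Aif1, Itgam and Cx3cr1 were so in 0 samples.

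Synaptotagmins have a membrane anchor and a pair of C2 domains, which in many members bind calcium and phospholipids and act together with SNARE proteins in vesicle fusion. Syt1, Syt2 and Syt9 are the fast calcium sensors of synchronous transmitter release, while Syt3, Syt5 and Syt7 bind calcium in other settings. Syt4, Syt11, Syt12 and Syt13 lack calcium-binding residues in C2 domains and are not sensors of that kind. Levels below are log2 normalised intensities of a probe, and differences are log2 differences between group means. Levels of different probes are not set against each other.

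Of the 10 genes, Syt12 had the largest difference between knockdown and nontargeting cultures. Its signal was 6.66-fold higher in knockdown than in nontargeting cultures, a log2 difference of 2.74 that was 3.69 with the scanner's processed signal and 3.63 in the deposited matrix. In this comparison Syt2 was 1.61-fold higher, Syt1 had overlapping groups at its tested probe but higher knockdown values at another, and Syt9 was near background. Syt4 was 2.20-fold lower in knockdown than in nontargeting cultures and was below the values of all other groups at each of its 3 probes. None of the 10 genes passed limma's test (adjusted p under 0.05) in overexpression against not transduced cultures. In these bulk samples, fewer cells of a type and less RNA per cell cannot be told apart.

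**Figure D1:**
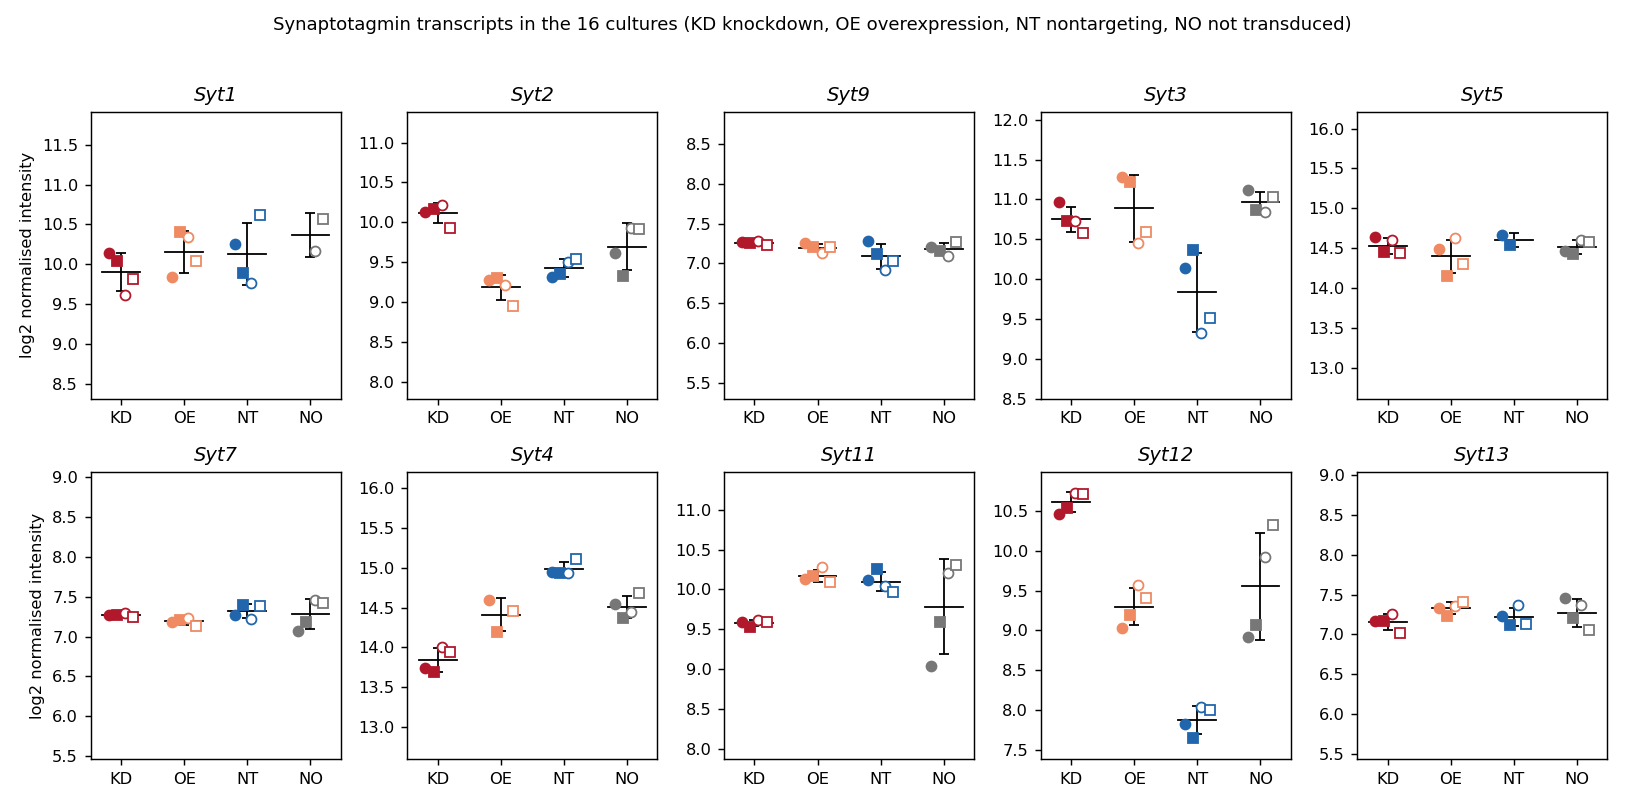
Log2 normalised intensity (vertical axes, each spanning the same number of log2 units) of the tested probe of each of the 10 genes in knockdown (KD), overexpression (OE), nontargeting (NT) and not transduced (NO) cultures. Circles are Cy3 and squares Cy5 samples, filled symbols the first and open symbols the second array of a group, and lines with bars the mean ± SD of the values present. Syt12 shows all 4 knockdown values above, and all 4 nontargeting values below, those of every other group.

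The fast calcium sensors are described first. Probes of different members share runs of at most 9 bases, and no probe of another gene shares a run of 20 bases with a member's probe. The tested Syt1 and Syt2 probes and the Syt9 probe are printed because the contrast with Syt12 rests on them, and the Syt12 probe (its first 30 bases) is printed beside them. Capitals mark the 32 bases that the Syt1 probe shares with a further probe for Syt1 splice variant 4. All are in the array's annotation on rn4, read 5′ to 3′.
Syt1, chr7:47389965-47390024, minus strand: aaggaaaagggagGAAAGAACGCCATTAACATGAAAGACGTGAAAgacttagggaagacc
Syt2, chr13:47697767-47697826, plus strand: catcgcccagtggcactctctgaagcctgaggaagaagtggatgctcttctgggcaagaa
Syt9, chr1:164876720-164878956, plus strand: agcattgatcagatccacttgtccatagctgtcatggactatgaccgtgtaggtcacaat
Syt12, chr1:207021822-207021881, minus strand: gatagctcctgtaatgacagggctaagatt
The annotated Syt9 interval spans 2237 bases for a probe of 60 bases, so the probe is placed across separate stretches of the genome.

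Syt1 is the main sensor of synchronous release in forebrain neurons. Its tested probe read 10.14, 10.04, 9.61 and 9.82 in knockdown and 9.83, 10.40, 10.34 and 10.04 in overexpression cultures. It read 10.25, 9.89, 9.76 and 10.61 in nontargeting and 10.17 and 10.56 in not transduced cultures, where replicates 1 and 2 had no usable value. Groups next to each other in the order of their means overlapped. The difference was -0.23 ± 0.32 (SE) for knockdown minus nontargeting. For overexpression minus not transduced it was -0.21 ± 0.39 (limma adjusted p = 1.00, 95% interval -1.05 to 0.62). Knockdown minus not transduced was -0.47 (adjusted p = 0.503), with all knockdown values below the 2 not transduced values. The further Syt1 probe at chr7:47243495-47243554 averaged 9.07 ± 0.11 in knockdown, 8.95 ± 0.35 in overexpression, 8.51 ± 0.42 in nontargeting and 8.89 ± 0.15 in not transduced cultures (SD, n = 4 each). There all knockdown values were above all nontargeting values, with a difference of 0.57, so the Syt1 probes disagree in the sign of this comparison. The splice variant 4 probe, which has no position in the annotation, gave 0.22 with overlapping groups. With the mean of all Syt1 probes the difference was 0.19.

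Syt2 is the fast sensor of many hindbrain and spinal synapses and of some interneurons. It read 10.13, 10.16, 10.22 and 9.93 in knockdown and 9.28, 9.29, 9.21 and 8.95 in overexpression cultures. It read 9.31, 9.35, 9.51 and 9.53 in nontargeting and 9.61, 9.32, 9.93 and 9.92 in not transduced cultures. All knockdown values were above all nontargeting values, and all overexpression values were below those of every other group, by a margin of hundredths of a log2 unit against nontargeting and not transduced cultures. The difference was 0.69 ± 0.16 for knockdown minus nontargeting and -0.51 ± 0.16 for overexpression minus not transduced. The second of these had an unadjusted limma p of 0.00589, a 95% interval of -0.85 to -0.17 and an adjusted p of 1.00 over all genes, so it did not pass. Against not transduced cultures the difference was 0.42 for knockdown (limma adjusted p = 0.116) and -0.27 for nontargeting (0.247). Syt2 passed in knockdown against not transduced in 3 of 21 alternatives (adjusted p 0.0243 to 0.558), among them without the array of not transduced replicates 3 and 4 (0.65, adjusted p = 0.0401). It passed in nontargeting against not transduced without the array of replicates 1 and 2 (-0.50, adjusted p = 0.0486). The summed intensity of 12 interneuron markers ran from 22462 to 28172 in knockdown, 40579 to 52359 in overexpression, 21874 to 30824 in nontargeting and 44770 to 55562 in not transduced cultures. The sum differed between the slides and overlapped within each slide. Single markers did not all follow the sum. All knockdown values were above all nontargeting values in 7 of the 12, among them Gad1 (1.25) and Gad2 (0.83), against 17.5% of all genes. They were all below in 2, Calb2 (-1.67), the largest difference of the list in size, and Dlx2 (-0.11), against 20.4% of all genes. The median difference of the 12 was 0.49. In overexpression against not transduced, 0 of the 12 had all values above and 2 all below, Npy (-0.74) and Pvalb (-0.48). Neither passed limma's test, and 6.79% of all genes had groups that did not overlap there. The part of these markers in the Syt2 values was not tested.

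Syt9 is the fast sensor of some striatal and limbic neurons in mice. Its probe was well above background in 2 knockdown, 1 overexpression, 1 nontargeting and 1 not transduced samples. The group means were 7.26 ± 0.02, 7.20 ± 0.05, 7.09 ± 0.15 and 7.18 ± 0.08 in that order (SD, n = 4 each), with overlap between all neighbours. At this signal a difference between groups was not detectable, and its interval for overexpression minus not transduced was -0.22 to 0.26.

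Of the other calcium-binding members, Syt3 was low in nontargeting cultures. Syt3 is described in neurons as a calcium sensor for removal of AMPA receptors from the postsynaptic surface. Its probe (chr1:94877199-94877349, plus strand) read 10.96, 10.73, 10.73 and 10.58 in knockdown and 11.28, 11.22, 10.46 and 10.60 in overexpression cultures. It read 10.14, 10.36, 9.32 and 9.52 in nontargeting and 11.12, 10.86, 10.84 and 11.03 in not transduced cultures. All 4 nontargeting values were below the values of every other group, and the other groups overlapped each other. The arrays of the overexpression group differed by 0.72 and those of the nontargeting group by 0.83, larger gaps than 98.1% and 96.7% of genes had in these groups. Knockdown minus nontargeting was 0.92 ± 0.25. Nontargeting minus not transduced was -1.13 ± 0.25 (limma adjusted p = 0.00526), and Syt3 passed there in every alternative computed (adjusted p 0.00049 to 0.0497), across the slides. Knockdown minus not transduced was -0.21 ± 0.25 (adjusted p = 0.663) and overexpression minus not transduced -0.07 ± 0.25 (adjusted p = 1.00, interval -0.62 to 0.47).

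Syt5, found on dense-core vesicles, had a bright probe and group means close together. They were 14.53 ± 0.10 in knockdown, 14.40 ± 0.21 in overexpression, 14.60 ± 0.09 in nontargeting (2 values, replicates 3 and 4 missing) and 14.52 ± 0.08 in not transduced cultures. All neighbouring groups overlapped, and overexpression minus not transduced was -0.12 (interval -0.38 to 0.14). Syt7, the high-affinity sensor of asynchronous release and facilitation, was well above background in 2, 1, 2 and 2 of the 4 knockdown, overexpression, nontargeting and not transduced samples. Its means were 7.27, 7.19, 7.32 and 7.28 in that order, at a signal where differences of this size cannot be read.

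**Figure D2:**
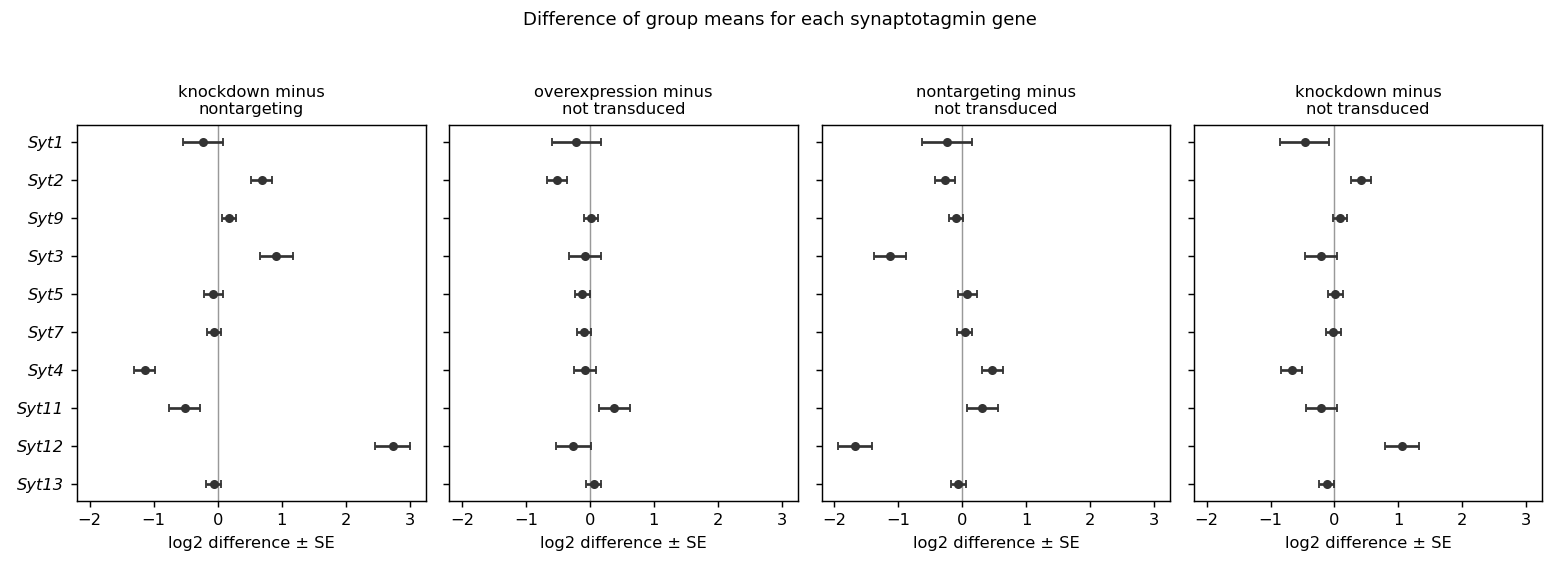
Difference of group means (log2, horizontal axes) with its SE for each of the 10 genes in 4 comparisons, the first-named group minus the second. Syt12 lies at 2.74 in knockdown minus nontargeting and at -0.26 in overexpression minus not transduced.

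Syt12 stood apart among the members that lack calcium-binding residues. It is a vesicle protein first described in rats as a gene that responds to thyroid hormone in brain, and in mice it is a target of protein kinase A that is needed for long-term potentiation at hippocampal mossy fibres. Its single probe read 10.46, 10.54, 10.73 and 10.71 in knockdown cultures, with a mean of 10.61 ± 0.13 (SD, n = 4). In overexpression cultures it read 9.03, 9.19, 9.56 and 9.41. In nontargeting cultures it read 7.82, 7.65, 8.04 and 7.998, with a mean of 7.88 ± 0.18. In not transduced cultures it read 8.91, 9.07, 9.92 and 10.32. The order of the means was knockdown, not transduced, overexpression and nontargeting. Knockdown values were above and nontargeting values below those of every other group, and overexpression and not transduced cultures overlapped. Knockdown minus nontargeting was 2.74 ± 0.27, made up of a knockdown level above and a nontargeting level below the not transduced mean of 9.56 ± 0.67. Knockdown minus not transduced was 1.06 ± 0.27 and nontargeting minus not transduced -1.68 ± 0.27, both across slides and both sharing the not transduced samples. For overexpression minus not transduced, a comparison the choice of members did not use, the difference was -0.26 ± 0.27 (limma adjusted p = 1.00, interval -0.83 to 0.31).

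The not transduced samples were far apart for Syt12. The means of their 2 arrays differed by 1.12, a gap larger than that of 99.3% of genes in this group, where the median gap was 0.15. Without the array of replicates 1 and 2, knockdown minus not transduced was 0.49 and nontargeting minus not transduced -2.24. Without the array of replicates 3 and 4 these were 1.62 and -1.12. The sizes against not transduced cultures thus depend on which array is used, while the signs do not. The contrast with the fast sensors in knockdown minus nontargeting was 2.74 for Syt12 against -0.23 for Syt1, 0.69 for Syt2 and 0.17 for Syt9. The Syt1 value is that of its tested probe, whereas the further Syt1 probes gave 0.57 and 0.22, and Syt9 was near background. Differences between genes were not tested.

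The summed intensity of proliferating-cell markers, like Syt12, was highest in knockdown and lowest in nontargeting cultures. The sum of 9 of them, of 11 listed and 10 measured, ran from 8302 to 10942 in knockdown, 3841 to 4808 in overexpression, 2561 to 3010 in nontargeting and 3313 to 5010 in not transduced cultures. Of the 10 measured, 8 had all knockdown above all nontargeting values, against 17.5% of all genes. In 5 of the 10 (Ccna2, Cdk1, Mcm3, Mcm5 and Top2a) knockdown had the highest and nontargeting the lowest mean of the 4 groups, while in Mcm2, Mcm6, Pcna, Ccnb1 and Aurkb it did not hold at one end or the other. Their part in the Syt12 values was not tested.

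Over 10633 genes with a symbol and values in all 16 samples, the 5 profiles most like that of Syt12 were those of Oma1, Slc30a1, Pex5l, Gpr158 and Rasgef1c. Likeness was the root mean square difference between dye-adjusted log2 intensities centred on their means, over the 16 samples. It was 0.26 for Oma1, a mitochondrial protease, 0.33 for Slc30a1, a zinc exporter, 0.38 for Pex5l, 0.39 for Gpr158, an orphan receptor, and 0.42 for Rasgef1c, against a range of 3.13 for Syt12 itself. The mean of Oma1 was 11.10 in knockdown, 10.11 in overexpression, 8.76 in nontargeting and 10.33 in not transduced cultures. In each of the 5 genes, knockdown had the highest and nontargeting the lowest group mean. This order follows from their choice by likeness to Syt12 over the same samples and is not a separate result. Syt1 was left out of this search because its tested probe lacks values in 2 samples.

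**Figure D3:**
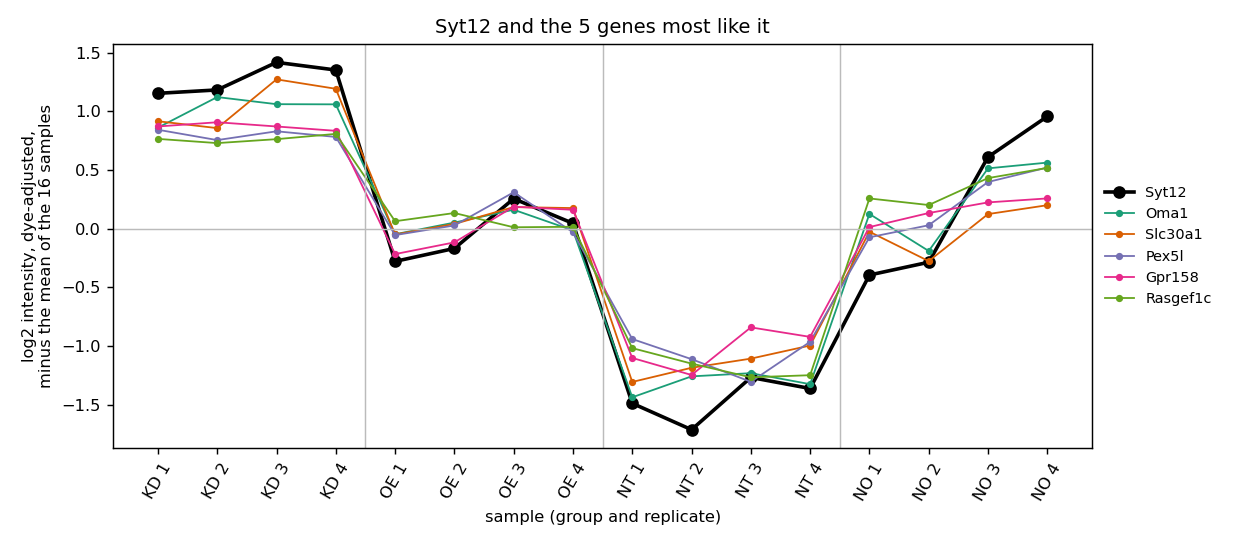
Dye-adjusted log2 intensity minus its mean over the 16 samples (vertical axis) for Syt12 (thick line) and the 5 genes most like it, by sample in the order knockdown (KD), overexpression (OE), nontargeting (NT) and not transduced (NO). The lines join samples of a gene for legibility and do not mark an order of replicates. Oma1, at a root mean square difference of 0.26, follows Syt12 most closely.

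Syt4 was the member with the lowest knockdown level relative to the other groups. Syt4 sits on vesicles that carry peptides and neurotrophins, and it was described as an early gene induced by depolarisation in rat cells. Its 3 probes lie at chr18:23805448-23805507, chr18:23806030-23806089 and chr18:23810667-23810726 on the minus strand. The last lies nearest the start of the transcript of the 3 and is printed because it gave the largest difference of the 3 against not transduced cultures.
Syt4, chr18:23810667-23810726, minus strand: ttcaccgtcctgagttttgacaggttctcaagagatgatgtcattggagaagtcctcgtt
The tested probe, the brightest, read 13.74, 13.69, 14.01 and 13.94 in knockdown cultures and 14.59, 14.19 and 14.45 in overexpression cultures, where replicate 3 had no usable value. It read 14.94, 14.94, 14.93 and 15.11 in nontargeting and 14.54, 14.37, 14.44 and 14.68 in not transduced cultures. All knockdown values were below, and all nontargeting values above, those of every other group. Knockdown minus nontargeting was -1.14 ± 0.16 at this probe, -1.22 at the second and -0.86 at the probe printed above.

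Across the slides, Syt4 was lower in knockdown than in not transduced cultures, with a difference of -0.67 ± 0.16 at the tested probe (limma adjusted p = 0.0197). The further probes gave -0.97 (adjusted p = 0.00129) and -0.59 (adjusted p = 0.0904), with all knockdown values below all not transduced values at each. The adjusted p at the tested probe was 0.111 in the deposited matrix, 0.057 without the array of not transduced replicates 1 and 2, and 0.0708 without that of replicates 3 and 4. Nontargeting minus not transduced was 0.47 ± 0.16 (adjusted p = 0.0543) at the tested probe and 0.63 (adjusted p = 0.0427) at the second, but -0.11 (adjusted p = 0.662) at the printed probe, so the nontargeting level is not settled by the 3 probes. At the tested probe this comparison passed in 9 of 21 alternatives (adjusted p 0.0032 to 0.196), among them without nontargeting replicate 3 (0.0337) and without not transduced replicate 4 (0.0279). Overexpression minus not transduced was -0.08 ± 0.17 (adjusted p = 1.00, interval -0.45 to 0.28).

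**Figure D4:**
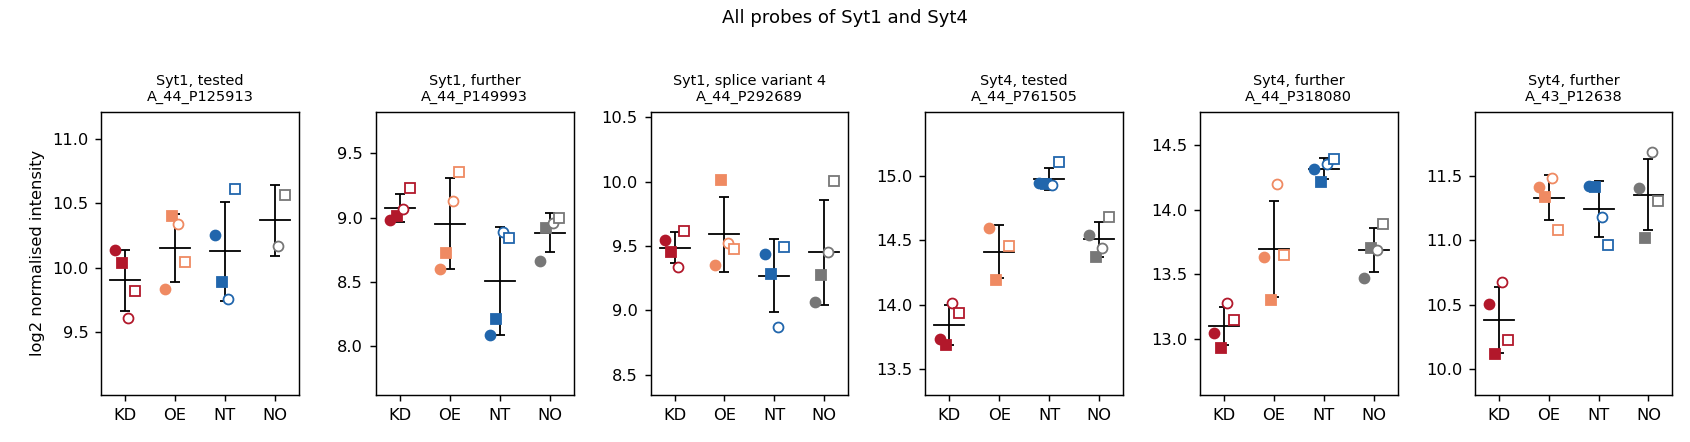
Log2 normalised intensity (vertical axes, each spanning the same number of log2 units) of every probe of Syt1 and Syt4 in the 4 groups, with symbols, lines and bars as in the plot of all members (mean ± SD of the values present). Knockdown values are below every other group at the 3 Syt4 probes, while the 3 Syt1 probes differ in the order of the groups.

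Syt11 values were lower in knockdown than in nontargeting cultures and, across the slides, than in overexpression cultures. Syt11, which does not bind calcium and restrains endocytosis in neurons, has its probe at chr2:180876011-180887441 on the minus strand, an interval of 11431 bases. It read 9.59, 9.52, 9.61 and 9.59 in knockdown and 10.13, 10.17, 10.28 and 10.09 in overexpression cultures. It read 10.11, 10.25, 10.05 and 9.97 in nontargeting and 9.03, 9.59, 10.20 and 10.31 in not transduced cultures. Knockdown values lay close together and below all overexpression and nontargeting values, while the not transduced values overlapped all groups. Knockdown minus nontargeting was -0.52 ± 0.24. Knockdown minus not transduced was -0.21 (limma adjusted p = 0.648) and nontargeting minus not transduced 0.31 (adjusted p = 0.383). As for Syt12, the not transduced arrays differed, here by 0.94, more than for 98.8% of genes. Without the array of replicates 1 and 2, knockdown minus not transduced was -0.68 (adjusted p = 0.00962) and nontargeting minus not transduced -0.16. Without that of replicates 3 and 4, knockdown minus not transduced was 0.27 and nontargeting minus not transduced 0.78 (adjusted p = 0.0273). The signs of both Syt11 differences thus depend on which not transduced array is used.

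Syt13, a member with no calcium binding, was well above background in 1 knockdown, 3 overexpression, 2 nontargeting and 1 not transduced samples. Its means were 7.15, 7.33, 7.21 and 7.27 in that order, and all neighbours overlapped.

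Counted over the family, 5 of the 10 genes had knockdown and nontargeting groups that did not overlap, 3 higher (Syt2, Syt3 and Syt12) and 2 lower (Syt4 and Syt11) in knockdown. This was so for 37.9% of all genes, 17.5% higher and 20.4% lower, and nothing is read from the members' count since this comparison chose them. In overexpression against not transduced, 0 of 10 passed limma's test at an adjusted p of 0.05, where 0.00436% of all genes passed, a single gene, Eftud2 (difference 1.71). At an unadjusted p under 0.05, 1 of 10 passed (Syt2), against 3.9% of all genes. The groups of 1 member, Syt2, did not overlap there, against 6.79% of all genes. In simulated data of this comparison, 100 genes were changed by 1 log2 unit and 100 by 0.5, and 79% and 21% of these were recovered. The adjustment of p is stricter where fewer genes pass, as in the data, where a single gene did. These shares are therefore too high for the members, whose changes could have been missed at either size.

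In nontargeting against not transduced, 2 of 10 passed (Syt3 and Syt12, both lower), against 22.5% of all genes. In knockdown against not transduced 2 of 10 passed (Syt12 higher and Syt4 lower), against 10.1% of all genes. Syt12 is part of these counts as a description, because its knockdown and nontargeting values singled it out. With 10 members, these counts are not read as results about the family. The median difference of the members was -0.06 in knockdown minus nontargeting, -0.09 in overexpression minus not transduced, -0.08 in nontargeting minus not transduced and -0.07 in knockdown minus not transduced. Over all genes it was -0.02, -0.01, 0.03 and 0.00 in that order.

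Partners in vesicle release were read from a list of 27 genes, of which 26 were measured. In overexpression against not transduced, 0 passed limma's test, with a median of -0.05, and those with the smallest p were Cadps (0.58), Rph3a (-0.24), Rims2 (0.17) and Cplx1 (-0.18), all with an adjusted p of 1.00. In nontargeting against not transduced, 4 rose and 4 fell, against 11.5% and 10.9% of all genes, with a median of -0.05. Cadps2, a priming factor of dense-core vesicles, rose by 1.61 (adjusted p = 1.02e-05), and Rims2, an active zone scaffold, by 0.54 (0.00376). Nsf, the ATPase that takes SNARE complexes apart, fell, with a difference of -0.67 (adjusted p = 0.0106). In knockdown against not transduced 3 rose and 1 fell, against 4.87% and 5.24% of all genes, with a median of -0.01. Rims2 (0.79), Cadps2 (0.82) and the vesicle glycoprotein gene Sv2b (0.79) rose, and Nsf fell (-0.74), with adjusted p from 0.000642 to 0.0128. In knockdown against nontargeting, 5 of the 26 had groups that did not overlap and were higher in knockdown, and 3 were lower, with Cadps2 at -0.79. Over all genes these shares were 17.5% and 20.4%, and nothing is read from the counts.

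Further synaptotagmin-like genes were read from a list of 15, of which 7 were measured. By limma's adjusted p, 0 of the 7 passed in overexpression against not transduced (0.00436% of all genes), 2 in nontargeting against not transduced (22.5%) and 1 in knockdown against not transduced (10.1%). In nontargeting against not transduced Esyt3, a tether of the endoplasmic reticulum to the plasma membrane, rose (0.99, adjusted p = 0.000591), and Syt17 fell (-0.58, adjusted p = 0.00287). In knockdown against not transduced Syt17 rose (0.60, adjusted p = 0.00498) and 0 fell. The Syt17 means were 11.45 in knockdown, 10.91 in overexpression, 10.27 in nontargeting and 10.85 in not transduced cultures, so knockdown had the highest and nontargeting the lowest mean, as for Syt12.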

How the data were processed

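Transcripts were measured in 16 samples on 8 two-colour Agilent rat arrays (Feature Extraction 10.7.3.1, per the submitters' processing notes). The deposited intensity values are, per the file headers, mean spot and median background signals without normalization, and a processed signal already background-subtracted and dye-normalized. The deposited series matrix holds log2 values per sample, which matched log2 of the median signal minus background minus a constant, with a column median of 0. Groups came from the source labels. A description label naming brain tissue of hormone-treated adults contradicts the culture protocol and was not used.

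Intensities were corrected by normexp (offset 50), balanced between dyes by loess (weight 0 for control spots) and aligned by Aquantile in limma 3.58.1 (statmod 1.5.0, data.table version 1.17.8, R 4.3.3). Outlier spots were set to missing, replicate spots were averaged, and a probe was kept if 4 of 16 samples or more were well above background and it had 12 values or more, with 2 or more per group. Of 41012 probes, 21160 were matched to a symbol of the RefSeq table (GRCr8), used for names only, and the rest kept the array's name. The probe with the highest mean stood for a gene, which gave 22925 genes from 27294 probes. Limma was fitted to all 16 samples with group and dye as terms and the array as random block (correlation 0.569), with two-sided p-values adjusted by Benjamini-Hochberg over all genes and a threshold of 0.05. The number of arrays limits the precision. The script was tested on simulated data. Plots used matplotlib 3.10.9 in Python 3.11.15.

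The members, their role lists, the 2 partner lists, the marker lists and the tests were chosen with earlier results of these data known. All members and their probes are named, with up to 4 measured members of a partner list with the smallest p in each tested comparison, and the 5 genes most like Syt12. Named in addition after their values were seen are Eftud2, and Cadps2 in knockdown against nontargeting. A further gene that these rules name is not reported here. Between knockdown and nontargeting, samples with the same number correlated at 0.134, 0.151, 0.257 and 0.192 after group means were removed, all above 0.1. Those of knockdown and not transduced correlated at 0.165 to 0.265. These numbers were therefore taken as pairs, but only in the alternative with a replicate block. The main fit had no term for them. The labels do not say what a number shares, and same-numbered samples also share a dye. With the dye removed these correlations were 0.061 to 0.146 and 0.026 to 0.125, so that not every pair stayed above 0.1. Numbers did not pair overexpression with not transduced (-0.186 in replicate 4) or nontargeting with not transduced (0.048 in replicate 1). No 2 samples held identical values. Alternatives were another offset, the processed signal, quantile normalization, the deposited matrix, 2 other filters, the mean of all probes, no array block, 1 value per array, a replicate block, the groups compared alone, leaving out each replicate, and, added after the data were seen, leaving out either not transduced array.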

Additional observations from a re-analysis of the deposited data

Results flagged for a closer look

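Of 53 groups of 4 values examined over the members' probes, 1 held a value far from the others, while chance gives about 1 in 20. The tested Syt4 probe read 15.11 in nontargeting replicate 4, against 14.94 in the nearest nontargeting sample, and this gap was 0.931 of the group's whole range. The other 3 nontargeting values lay within hundredths of a log2 unit of each other. Without this sample the nontargeting group was still the highest for this probe.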

How the results depend on the processing

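The Syt12 difference in knockdown minus nontargeting was 2.74, and 2.94 with an offset of 16, 3.69 with the processed signal and 3.63 in the deposited matrix. Leaving out each replicate gave 2.66 to 2.78. In overexpression against not transduced the count of members past the test was 0 in every alternative, leaving out each replicate included (0 to 0). In nontargeting against not transduced it was 2 or 3, and 2 to 3 on leaving out each replicate. Syt12 and Syt3 passed in all of these, with Syt4, Syt2 or Syt11 as the third. In knockdown against not transduced it was 2 (2 to 2 on leaving out each replicate) and 3 with no array block (Syt2 added). It was 1 with 1 value per array, with the groups compared alone (Syt4 in both), and without the array of not transduced replicates 1 and 2 (Syt11). Syt12 did not pass where the count was 1. An unchanged count could hold other members. Without the other not transduced array Syt2 passed and Syt4 did not, and Syt4 did not pass in the deposited matrix. With the replicate block the Syt12 difference stayed at 2.74 (SE 0.20), and the counts of members past the test were 0, 3 and 2 in these comparisons. The added call was Syt4 in nontargeting against not transduced (adjusted p = 0.0184), where the numbers did not meet the rule for pairs, and the block changed no other call of a member.

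Between the main fit and any alternative, no difference called in either reversed its sign. Between the alternatives that leave out a not transduced array, Syt11 did reverse, in knockdown and in nontargeting against not transduced. Each of these differences was called in 1 of those alternatives. Of the single-gene values with a test, 544 kept their side of the threshold under an alternative, 15 passed newly and 3 no longer passed. Syt12 in knockdown or nontargeting against not transduced is held as a value with no test, so its lost calls are not in this tally. Of the single-gene values with no test, 190 moved by less and 16 by more than the replicate SD. A change of sign in a difference called in neither setting was counted as no change. The causes were not tested. In the deposited matrix 8 of the 10 members were tested, and 7 with a filter of 8 samples. Signal over background limits Syt7, Syt9 and Syt13.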

Other observations

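Promoter sequences of RefSeq (GRCr8, 300 bases around the start of a gene) were at hand for 6 of the 10 members, Syt1, Syt2, Syt3, Syt4, Syt9 and Syt11. None of the 6 held the AP-1 motif TGACTCA or the CRE motif TGACGTCA on either strand, which 4.63% and 1.83% of 33469 promoters held. This says only that these letters are not in this window. The share of G and C was 79.7% in the Syt9 promoter, 64.3% in that of Syt1 and 51.3% in that of Syt4, against a median of 51.7% over all promoters.

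Among the further synaptotagmin-like genes, Syt16 averaged 10.32 in knockdown, 10.02 in overexpression, 9.12 in nontargeting and 9.76 in not transduced cultures. Its difference was 0.56 in knockdown minus not transduced (limma adjusted p = 0.138) and -0.64 in nontargeting minus not transduced (adjusted p = 0.0535), so it passed in neither. Syt10 averaged between 7.14 and 7.23 in the 4 groups.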
